A study of Mus musculus with 4 samples.

Results

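Parvalbumin-type (PV-type) interneuron nuclei were examined in single-nucleus RNA sequencing of the mouse cerebral cortex. A nucleus entered the population by its raw counts of unique molecular identifiers (UMIs, each standing for 1 captured RNA molecule). It had at least 1 UMI of Gad1 and Gad2 together, none of Slc17a7, at least 2 of Btbd11, at least 5 of Erbb4, at least 2 of Pvalb, Eya4 and Tmem132c together, none of Sst or Vip, and at most 1 of Rarb. The rule took 770 of the 35694 nuclei in the matrices (2.16%), and 770 of the 7415 nuclei with a Gad1 or Gad2 UMI and no Slc17a7 UMI. By library they numbered 198 and 199 in the control libraries and 191 and 182 in the CrT-KO libraries. All 11 genes of the rule are therefore given below as a description only.

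The 4 libraries came from the right cerebral cortex of adult male mice on a C57Bl/6 J background, at PND100 (postnatal day). The 2 control libraries were from wild-type littermates (CrT+/y), and the 2 CrT-KO libraries were from hemizygous animals (CrT-/y) that carry a deletion of exons 5 to 7 of Slc6a8 in every cell. Slc6a8 is X-linked and encodes the creatine transporter. Each library held nuclei of 1 animal, so n = 2 animals per genotype throughout, and no animal received a treatment.

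Parvalbumin interneurons are GABAergic cells that contact the cell bodies and axon initial segments of pyramidal neurons. They fire long trains of brief action potentials at high rates, which rests on fast potassium channels of the Kv3 family, and they release GABA with little delay. Their high rate of firing makes large demands on ATP, and the creatine and phosphocreatine pair carries energy from mitochondria to the places where ATP is spent.

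The deleted exons are shown because they define the genotype of every CrT-KO nucleus. They were read from the GENCODE vM21 transcript Slc6a8-201 on build GRCm38, with exon numbers as in that transcript of 13 exons, on the plus strand, and they add up to 364 bases. Exon 5 lies at chrX:73678636-73678770, exon 6 at chrX:73678866-73678969 and exon 7 at chrX:73679064-73679188. No base is marked by capitals.
Slc6a8 exon 5: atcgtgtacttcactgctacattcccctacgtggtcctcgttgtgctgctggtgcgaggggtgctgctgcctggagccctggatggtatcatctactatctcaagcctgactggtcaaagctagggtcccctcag
Slc6a8 exon 6: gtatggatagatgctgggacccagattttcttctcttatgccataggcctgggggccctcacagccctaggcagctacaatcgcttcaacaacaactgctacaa
Slc6a8 exon 7: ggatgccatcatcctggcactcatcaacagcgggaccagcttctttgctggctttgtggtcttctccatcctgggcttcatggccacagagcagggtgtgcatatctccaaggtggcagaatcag

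The PV-type nuclei of the 4 libraries held 1450015, 1582215, 1603923 and 1280206 UMIs, in the order control 1, control 2, CrT-KO 1 and CrT-KO 2, which is the order of every list of 4 values below. Their median depth was 6796, 7298, 7858 and 6505 UMIs per nucleus, and the median number of detected genes was 2455, 2564, 2674 and 2350. Levels are in CPM, the UMIs of a gene per 1000000 UMIs of all genes in the PV-type nuclei of that library. Of the members, 3 carried a barcode that was also present in another library, and 0 barcodes were PV-type in more than 1 library. Scrublet, which scores nuclei against simulated doublets, marked 5.56%, 5.53%, 2.62% and 3.85% of the members as doublets.

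Slc6a8 was low in PV-type nuclei of every library. Slc6a8 in PV-type nuclei had 13 and 10 UMIs in the controls and 7 and 2 in CrT-KO, that is 8.97, 6.32, 4.36 and 1.56 CPM. Both CrT-KO values were lower than both control values, with a log2 ratio of the mean CPM of -1.37. The gene did not pass the filter on low counts, and in the fit without that filter its log2 fold change was -1.26 with an adjusted p of 0.947 by edgeR. The counts do not tell UMIs of the deleted exons from UMIs of the rest of the gene. In excitatory nuclei, with 93, 83, 19 and 15 Slc6a8 UMIs, the levels were 8.25, 6.26, 1.23 and 1.37 CPM.

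The population was checked against PV interneuron markers that the rule did not use. All 13 such markers were detected, as they also were in excitatory nuclei, so detection alone does not set the population apart. Their summed level was between 8970 and 9536 CPM in every library. It was 4354 to 6487 CPM in SST-type, 4277 to 4890 CPM in Grin3a-rich, 1738 to 2690 CPM in VIP-type and 1163 to 1289 CPM in excitatory nuclei. Kcnc1 and Kcnc2, which encode Kv3 channel subunits, stood at 271 to 317 and 3891 to 4314 CPM. Syt2, the fast calcium sensor of PV terminals, stood at 102 to 122 CPM, against 2.73 to 14.0 CPM in Grin3a-rich GABAergic nuclei and 0 to 14.8 CPM in VIP-type nuclei. Lhx6 and Sox6, transcription factors of interneurons from the medial ganglionic eminence, stood at 53.1 to 79.3 and 1097 to 1207 CPM. VIP-type nuclei, which arise elsewhere, held at most 5.92 CPM of Lhx6 and 99.9 CPM of Sox6. Grin3a-rich nuclei held 49.3 to 79.4 CPM of Lhx6 and 890 to 1207 CPM of Sox6, so neither gene parts PV-type nuclei from them. For Ppargc1a, Tac1 and Vwc2 the PV-type libraries also overlapped those of SST-type or Grin3a-rich nuclei. The 3 comparison populations were SST-type nuclei (at least 2 Sst UMIs, 41 nuclei), VIP-type nuclei (at least 2 Vip UMIs, 181 nuclei) and excitatory nuclei (at least 2 Slc17a7 UMIs and no Gad1 or Gad2, 4928 nuclei). Because SST-type nuclei were few, a further set of 450 GABAergic nuclei with at least 5 Grin3a and at most 1 Btbd11 UMIs was added after the data were seen and is called Grin3a-rich here.

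Among the genes of the rule, Pvalb itself was sparse in nuclear RNA. It gave 44.1, 34.1, 35.5 and 31.2 CPM, from 215 UMIs in all, and at least 1 UMI in 46, 45, 45 and 32 members (23.2%, 22.6%, 23.6% and 17.6%). For comparison, 16 Pvalb UMIs fell in the 4928 excitatory nuclei, whose median depth of 8625 to 10350 UMIs was greater. Btbd11 lay between 940 and 1128 CPM and Erbb4, the neuregulin receptor, between 12663 and 14248 CPM. Eya4 and Tmem132c lay between 383 and 416 and between 384 and 413 CPM. Gad1 and Gad2, the GABA-synthesizing enzymes, lay between 262 and 294 and between 227 and 253 CPM.

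The edges of the rule held many nuclei. With exactly 2 Btbd11 UMIs there were 28, 15, 18 and 16 members, and with exactly 1 Rarb UMI 62, 68, 61 and 52. Just outside, 583 nuclei missed only the condition on Pvalb, Eya4 and Tmem132c, 251 only that on Rarb, 219 only that on Btbd11, 64 only that on Erbb4, 63 only that on Gad1 and Gad2, 52 only that on Slc17a7, 39 only that on Sst and 12 only that on Vip.

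**Figure D1:**
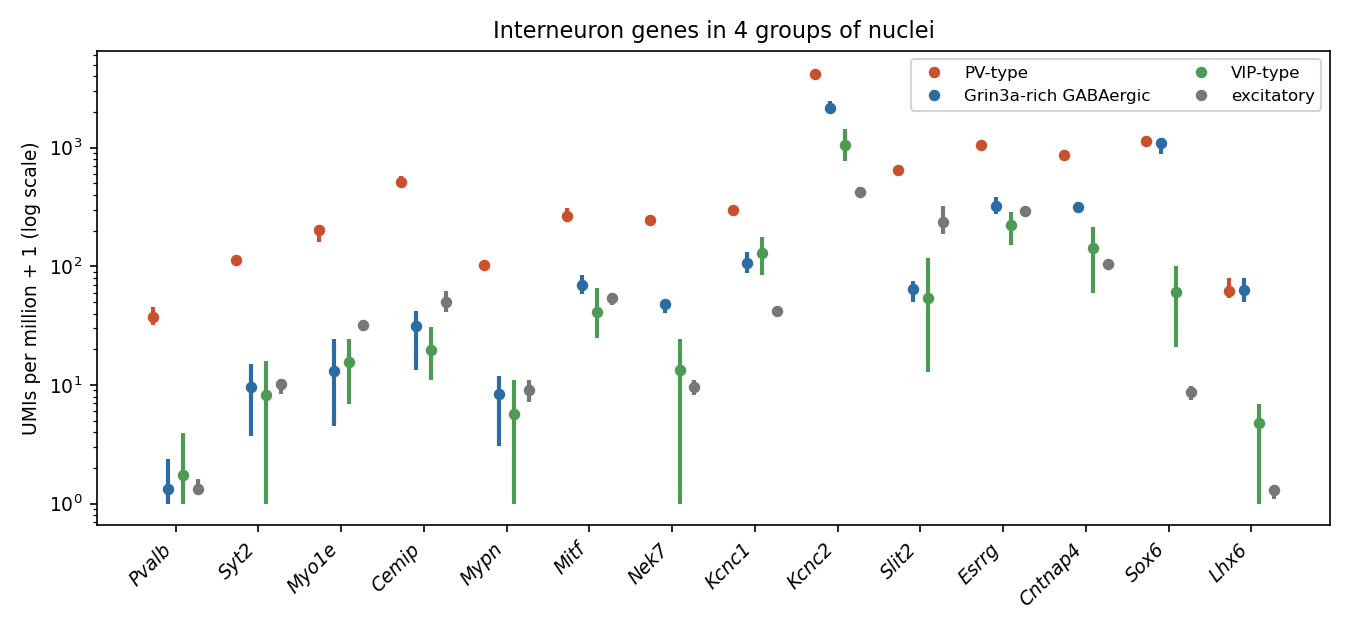
CPM plus 1 on a log axis for 14 interneuron genes in PV-type, Grin3a-rich, VIP-type and excitatory nuclei; points are means of the 4 libraries and vertical lines run from the lowest to the highest library. The lowest PV-type library lay above every library of the other GABAergic groups for Syt2, Myo1e, Cemip, Mypn and Nek7, while Sox6 and Lhx6 were shared with Grin3a-rich nuclei.

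Among genes outside the rule with at least 50 UMIs in PV-type nuclei of every library, the 12 with the highest level relative to SST-type and VIP-type nuclei were Myo1e, Cemip, Mypn, 6330411D24Rik, Ndst3, Frmpd1, Mitf, Syt2, Rbm20, Dock4, Sox5 and Ltbp1. The mean CPM ratio to the higher of those populations ran from 4.72 for Ltbp1 to 13.6 for Myo1e. Myo1e, a class I myosin, stood at 206, 158, 221 and 214 CPM. Cemip, which acts in the breakdown of hyaluronan, stood at 572, 481, 474 and 543 CPM. Mypn, a sarcomeric protein in muscle, stood at 109, 94.8, 99.1 and 101 CPM. For all 12 genes the lowest PV-type library was higher than the highest library of the SST-type, Grin3a-rich and VIP-type nuclei. Glial nuclei, chosen by marker UMIs as given below, were outside this ranking. Oligodendrocyte-marker nuclei held a mean of 242 CPM of Myo1e and 301 of Mitf, against 200 and 267 in PV-type nuclei. Astrocyte-marker nuclei held 405 CPM of Frmpd1 and 117 of Ltbp1, against 149 and 73.4. Microglia-marker nuclei held 277 CPM of Mitf and 1979 of Dock4, against 267 and 1767. None of the 12 was called between genotypes, where their log2 fold changes ran from -0.28 (Ndst3) to 0.27 (Myo1e). The ratios describe populations chosen by their RNA and carry no test.

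The members were not uniform. Grin3a, an NMDA receptor subunit typical of SST interneurons, reached at least 3 UMIs in 30, 35, 33 and 19 members. In those nuclei Synpr, a synaptic vesicle protein, stood at 1128, 950, 1009 and 1073 CPM, against 55.4, 51.9, 95.4 and 93.0 CPM in the remaining members. Reln, the secreted protein reelin, stood at 364 to 470 CPM in them against 71.4 to 107 CPM, and Elfn1, a synaptic adhesion protein of SST cells, at 77.5 to 178 CPM against 6.48 to 10.9 CPM. The PV-side genes went the other way. Syt2 was at 12.7 to 54.5 CPM in the Grin3a members and 122 to 137 CPM in the others, Myo1e at 24.7 to 54.5 against 187 to 267 CPM, and Pvalb at 2.87 to 23.2 against 34.0 to 48.7 CPM. Sox6 overlapped, at 1009 to 1251 against 1099 to 1194 CPM. The Grin3a members were the deeper ones, with median depths of 8060 to 9402 UMIs against 6391 to 7554.

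**Figure D2:**
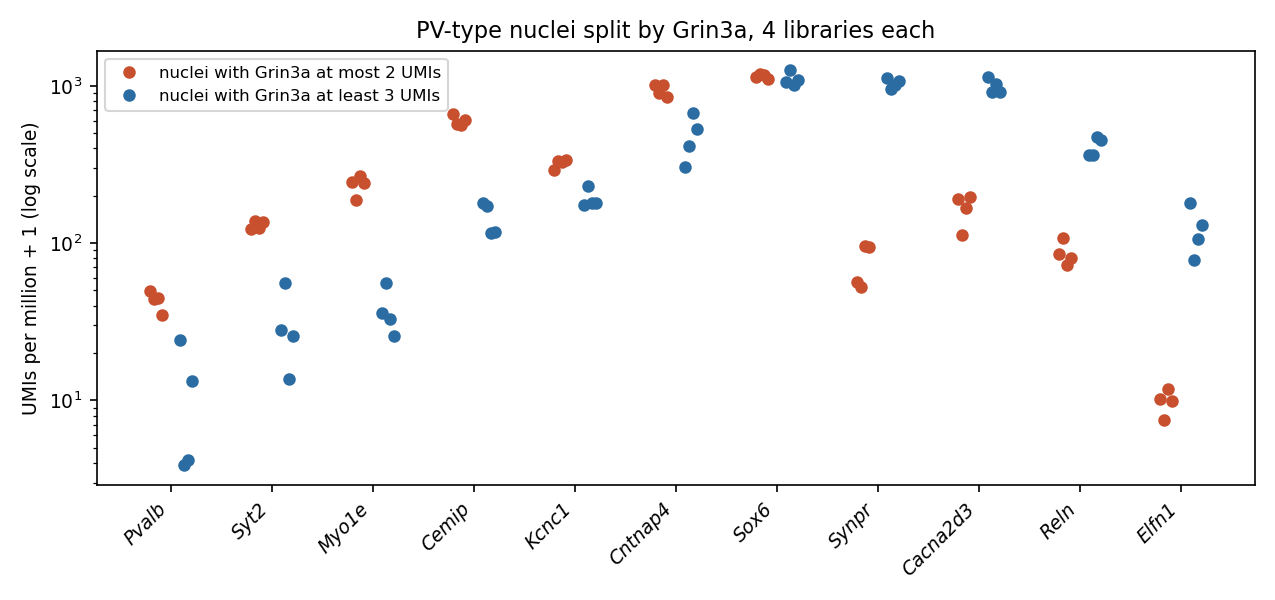
CPM plus 1 on a log axis for 11 genes in PV-type nuclei with at most 2 Grin3a UMIs and with at least 3, with 1 point per library. Syt2, Myo1e, Cemip and Kcnc1 were lower and Synpr, Cacna2d3, Reln and Elfn1 higher in the Grin3a nuclei in all 4 libraries, and Sox6 overlapped.

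Adarb2, an RNA-editing enzyme relative that is abundant in VIP interneurons, was concentrated in few members. Only 5, 6, 9 and 3 members had at least 5 Adarb2 UMIs, and they held 287 of 323, 223 of 260, 654 of 698 and 134 of 171 of the population's Adarb2 UMIs. Leaving out members with more than 2 Grin3a or more than 4 Adarb2 UMIs kept 637 nuclei (166, 160, 150 and 161). The share and the count of called genes between genotypes were also computed on these nuclei.

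Genes of PV subtypes were mostly scarce. Vipr2, a marker of chandelier cells, was at 0, 0, 1.87 and 0.78 CPM, and Pthlh was at 0.69 to 1.87 CPM. Il7 was listed at 0 in every library. Tac1, the precursor of substance P that marks a set of basket cells, was at 16.6, 16.4, 8.11 and 11.7 CPM (log2 fold change -0.74, SE 0.36, adjusted p by edgeR = 0.979). Both CrT-KO libraries lay below both controls, as for 18.0% of all genes tested. Gpr149 went the other way, with a log2 fold change of 1.08, and was detected in 7, 7, 9 and 17 members. No gene of this list was called. Calb1, the calcium buffer calbindin, was at 74.2 to 92.3 CPM and the groups overlapped.

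The first comparison between genotypes asked whether CrT-KO cortex held fewer PV-type nuclei. As a share of nuclei with Gad1 or Gad2 and no Slc17a7, they made up 11.2% and 10.2% in the controls and 9.43% and 10.9% in CrT-KO. The groups overlapped, and the means were 10.7% ± 0.708 and 10.2% ± 1.07 (SD, n = 2 each). The difference of -0.494 percentage points had a two-sided exact permutation p of 0.667, where 0.333 is the smallest that 6 assignments of 4 libraries allow. For a comparison at equal depth, nuclei under 3000 UMIs were dropped and the remaining 6082, 6564, 7034 and 6301 were thinned to 3000 UMIs. The denominator then held 1293, 1419, 1521 and 1221 nuclei, and the shares were 7.66%, 7.47%, 6.11% and 7.70%. Of all nuclei in a library, PV-type nuclei made up 2.39% and 2.14% in the controls and 2.06% in both CrT-KO libraries, without overlap (difference -0.207 percentage points, p = 0.333 by the same exact test). Among PV-, SST- and VIP-type nuclei alone the direction turned, from 73.3% and 75.1% in the control libraries to 80.3% and 83.1% in the CrT-KO libraries (p = 0.333 by the exact permutation test). The other types in that denominator were few, at 13, 15, 7 and 6 SST-type and 59, 51, 40 and 31 VIP-type nuclei. A nucleus enters only above its UMI limits, so a share here also depends on RNA content, and cells lost in preparation cannot be told apart from cells absent in the tissue.

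**Figure D3:**
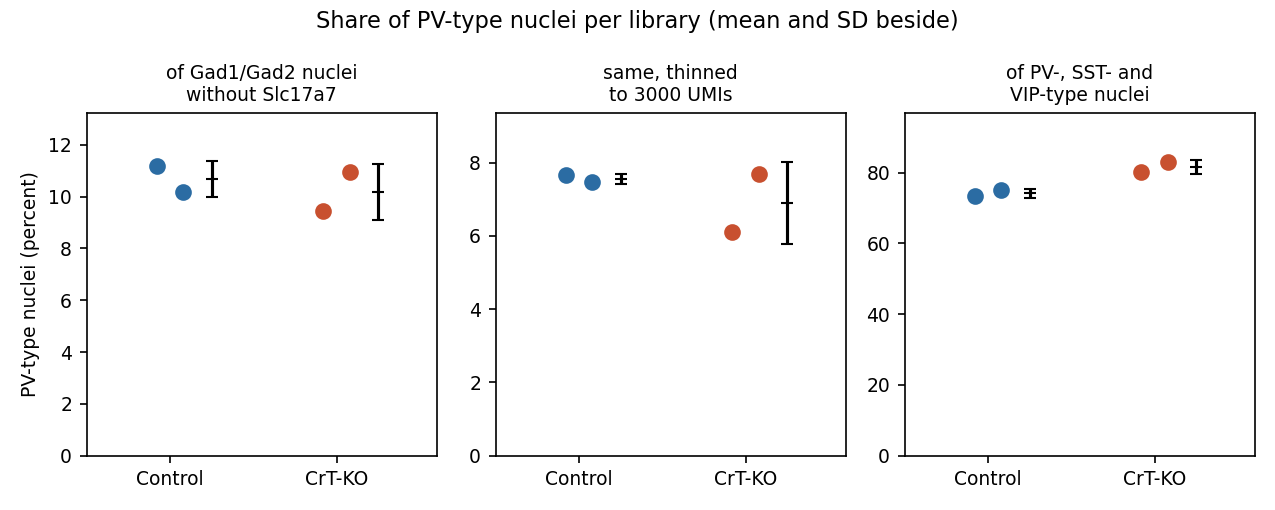
PV-type nuclei in percent of 2 denominators, the first also after thinning, with 1 point per library and the mean and SD (n = 2) beside them. Shares of Gad1 and Gad2 nuclei overlapped between genotypes before and after thinning to 3000 UMIs, while shares of PV-, SST- and VIP-type nuclei were 73.3% and 75.1% in control and 80.3% and 83.1% in CrT-KO.

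The second comparison asked which genes differed between CrT-KO and control PV-type nuclei. Of 8535 genes tested on sums per library (edgeR quasi-likelihood test, Benjamini-Hochberg adjusted p under 0.1), 7 were called (0.0820%). In CrT-KO 1 of them stood higher (0.0117%) and 6 stood lower (0.0703%). The gene that rose was March1 and those that fell were Rnf220, Slc15a2, Prr5l, Ptprt, Dock10 and Mbp. For each of the 7 genes both CrT-KO libraries lay on 1 side of both controls. At an unadjusted p under 0.05 there were 433 genes (5.07%). The median over all genes was close to 0, and 7755 genes lay within 0.5 of 0 on the log2 scale. In data simulated on these sums, the test called 62 of 93 genes changed 2-fold and 93 of 98 changed 4-fold, with 19 false calls. The simulated counts varied only by the fitted dispersion trend, with no shift in doublets or oligodendrocyte marker UMIs between libraries. These rates may therefore be optimistic for the real libraries.

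March1 (ENSMUSG00000036469, chromosome 8, 65617900 to 66471637, GRCm38) encodes a membrane-bound ubiquitin ligase. It had 507, 645, 1063 and 693 UMIs, or 350, 408, 663 and 541 CPM. Both CrT-KO libraries were higher than both controls, with a log2 fold change of 0.68 (SE 0.11, adjusted p by edgeR = 0.00581). It was expressed in every population, at a mean of 1126 CPM in excitatory, 961 in VIP-type and 1392 in oligodendrocyte-marker nuclei, against 490 CPM here.

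Rnf220 (ENSMUSG00000028677, chromosome 4, 117271463 to 117497052) encodes another ubiquitin ligase. It had 68, 91, 24 and 21 UMIs, or 46.9, 57.5, 15.0 and 16.4 CPM. The CrT-KO libraries were close to each other and far below the controls, and the log2 fold change was -1.73 (SE 0.25, adjusted p by edgeR = 0.000662).

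Slc15a2 (ENSMUSG00000022899, chromosome 16, 36750177 to 36784962) encodes a peptide transporter. It had 35, 34, 0 and 8 UMIs, or 24.1, 21.5, 0 and 6.25 CPM, with a fitted log2 fold change of -2.98 (SE 0.53, adjusted p by edgeR = 0.0106). The gene was also lower in both CrT-KO libraries in VIP-type nuclei, at 38.5, 36.6, 0 and 11.8 CPM (log2 fold change -2.88, adjusted p by edgeR = 0.391). In excitatory nuclei it stood at 11.6, 8.52, 2.58 and 6.11 CPM (-1.23, adjusted p by edgeR = 0.237). Grin3a-rich nuclei held 30.4, 15.0, 2.04 and 19.2 CPM, with overlap, and SST-type nuclei 2, 0, 0 and 3 UMIs. The fitted value in PV-type nuclei depends on the library at 0. Without CrT-KO replicate 1 it was -1.82 (adjusted p = 0.0666), and without CrT-KO replicate 2, which leaves CrT-KO at 0, it was -8.15, which is no bound.

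Prr5l (ENSMUSG00000032841, chromosome 2, 101714285 to 101883027), a partner of the mTORC2 kinase complex, had 35, 40, 9 and 9 UMIs, or 24.1, 25.3, 5.61 and 7.03 CPM. The groups did not overlap and the log2 fold change was -1.96 (SE 0.36, adjusted p by edgeR = 0.0149).

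Ptprt (ENSMUSG00000053141, chromosome 2, 161521990 to 162661147), a receptor tyrosine phosphatase, had 1269, 1163, 926 and 652 UMIs, or 875, 735, 577 and 509 CPM. Its log2 fold change was -0.55 (SE 0.11, adjusted p by edgeR = 0.0195). The call was lost without control replicate 1 (adjusted p = 0.177), without CrT-KO replicate 2 (0.118), and in members with few Grin3a and Adarb2 UMIs, where the log2 fold change was -0.16 (adjusted p = 0.959).

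Dock10 (ENSMUSG00000038608, chromosome 1, 80501073 to 80758527), a guanine nucleotide exchange factor, had 121, 156, 92 and 42 UMIs, or 83.4, 98.6, 57.4 and 32.8 CPM (log2 fold change -0.98, SE 0.19, adjusted p by edgeR = 0.0237). Mbp (ENSMUSG00000041607, chromosome 18, 82475146 to 82585637), myelin basic protein, had 89, 116, 61 and 42 UMIs, or 61.4, 73.3, 38.0 and 32.8 CPM (log2 fold change -0.91, SE 0.19, adjusted p by edgeR = 0.0607). Without CrT-KO replicate 2 neither was called (adjusted p = 0.325 for Dock10 and 0.144 for Mbp), and without control replicate 2 Mbp was not called (0.407). None of the 7 genes overlapped another gene of the matrices in the annotation.

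Oligodendrocyte markers as a sum stood lower in both CrT-KO libraries of PV-type nuclei, and the origin of these UMIs was not tested. All 7 oligodendrocyte markers (among them Mbp, Mog, Mag, Mobp, St18 and Mal) were detected and none was at 0. Their summed level was 166 and 157 CPM in the controls and 76.1 and 81.2 CPM in CrT-KO, and 5 of 7 were lower in both CrT-KO libraries than in both controls, against 18.0% of all genes tested. Members with at least 5 such UMIs numbered 7, 10, 3 and 2. In members marked as doublets the summed level was 1054, 637, 384 and 323 CPM, and in the other members 78.7, 120, 60.9 and 67.7 CPM. Excitatory nuclei held 167, 158, 161 and 119 CPM of these markers, a range that overlapped between genotypes. The 41 SST-type nuclei held 122, 108, 27.5 and 39.6 CPM, without overlap, while VIP-type nuclei held 237, 116, 164 and 282 CPM and Grin3a-rich nuclei 112, 302, 97.8 and 177 CPM.

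Of the 6 genes that fell, 4 were far higher in oligodendrocyte-marker nuclei than in PV-type nuclei. Prr5l stood at a mean of 3012 CPM there against 15.5 CPM in PV-type nuclei, and Mbp at 3916 against 51.4 CPM. Rnf220 stood at 2432 against 33.9 CPM and Dock10 at 3880 against 68.1 CPM. Dock10 was also higher than in PV-type nuclei in microglia-marker (718 CPM), VIP-type (311), Grin3a-rich (200) and SST-type nuclei (101). It was lower in excitatory (55.6) and astrocyte-marker nuclei (46.5). Microglia-marker nuclei were chosen by their UMIs of Csf1r, Cx3cr1 and P2ry12. Oligodendrocyte-marker nuclei were chosen by their UMIs of Mbp and of Mog, Mag or Mobp. The level of Mbp there is therefore set by the choice, while Prr5l, Rnf220 and Dock10 had no part in it. Astrocyte-marker nuclei were chosen by their UMIs of Slc1a2 and Slc1a3, with few of Mbp. Slc15a2 and Ptprt were highest in astrocyte-marker nuclei, at 229 and 2357 CPM against 13.0 and 674 CPM. Ptprt was also higher than in PV-type nuclei in Grin3a-rich (1299 CPM), excitatory (979) and SST-type nuclei (974), and lower in VIP-type nuclei (563). The 7 astrocyte markers together stood at 46.2, 92.3, 46.8 and 51.6 CPM in PV-type nuclei, with Aqp4 at 0, and their groups overlapped.

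The comparison was repeated on the 177, 170, 174 and 167 members with at most 1 UMI over the 7 oligodendrocyte markers, an alternative added after the data were seen. By edgeR 0 genes were called and 379 had an unadjusted p under 0.05. Rnf220 then stood at 32.0, 31.3, 14.2 and 17.3 CPM, still without overlap (log2 fold change -1.01, adjusted p = 0.998). Prr5l stood at 3.13, 5.34, 4.96 and 2.59 CPM, with the groups overlapping. Mbp, which is itself limited by this selection, stood at 24.2, 26.7, 21.3 and 21.6 CPM, without overlap. Dock10 stood at 50.8, 68.6, 46.8 and 30.2 CPM (log2 fold change -0.61, adjusted p by edgeR = 0.998). Ptprt stood at 869, 644, 606 and 500 CPM (-0.45, adjusted p = 0.998). Both also stayed without overlap. March1 stood at 350, 386, 601 and 522 CPM (log2 fold change 0.61, adjusted p = 0.257) and Slc15a2 at 21.9, 22.1, 0 and 6.04 CPM (log2 fold change -2.96, adjusted p = 0.393), each close to its value in all members. With doublets removed 9 genes were called, among them March1 (adjusted p = 0.000598), Slc15a2 (0.000598), Ptprt (0.00444) and Rnf220 (0.0618), but neither Dock10 (0.694) nor Mbp (0.532). Prr5l then stood at 6.82, 14.3, 4.58 and 4.13 CPM and fell under the filter.

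**Figure D4:**
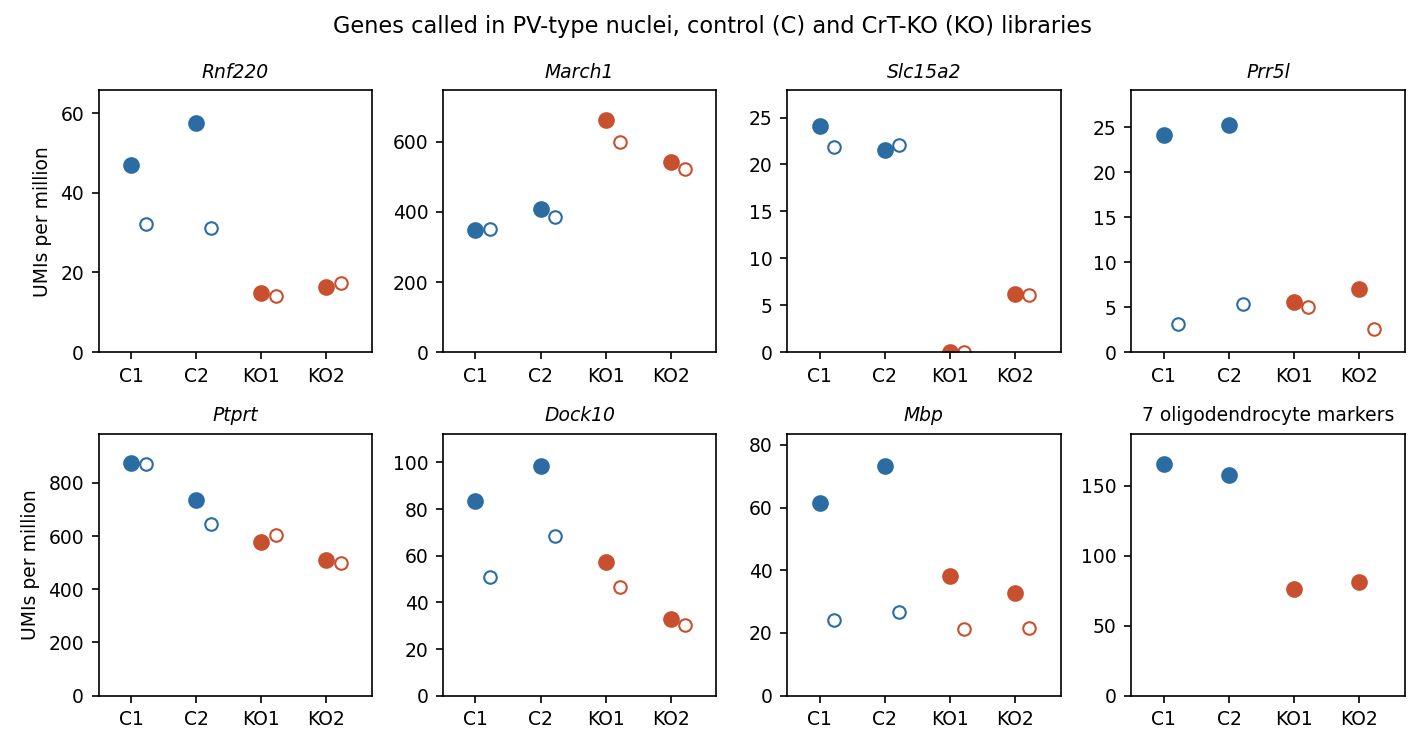
CPM in PV-type nuclei of 2 control (C1, C2) and 2 CrT-KO (KO1, KO2) libraries for the 7 called genes and the sum of 7 oligodendrocyte markers; filled points are all members and open points are members with at most 1 oligodendrocyte marker UMI. The open control points of Prr5l, Mbp, Rnf220 and Dock10 lie below the filled ones, and those of March1 and Slc15a2 lie close to them.

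Genes of PV interneuron function were grouped in 21 lists with 274 genes. Of their 270 genes outside the rule, 208 passed the filter, 0 were called by edgeR, none was among the calls of DESeq2, and 17 (8.17%) had an unadjusted p under 0.05, beside 5.07% of all genes. Their median log2 fold change was 0.03.

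No fast potassium channel passed the test. Of the 12 list members 10 were tested, and they lay between -0.18 (Kcns3) and 0.27 (Kcnab2) on the log2 scale, with a median of 0.04. Kcnc2 stood at 4314, 3891, 4285 and 4085 CPM (log2 fold change 0.04, SE 0.09), and Kcnc1 at 271, 311, 297 and 317 CPM (0.08, SE 0.12). Kcna1, a low-threshold Kv1 subunit, stood at 106, 117, 82.3 and 116 CPM.

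Sodium channels and their partners gave 11 of 12 members tested and a median of 0.01. Scn1a, the sodium channel on which PV cells depend, stood at 650, 636, 615 and 669 CPM, with overlap. Fgf13, a channel partner, stood at 521, 560, 620 and 645 CPM (log2 fold change 0.24, SE 0.10, adjusted p by edgeR = 0.929). Fgf12 and Fgf14 were the most abundant members, at 4573 to 5209 and 4145 to 4284 CPM.

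The 14 other potassium and HCN channels were all tested and had a median of 0.04. Kcnh7 and Kcnd2, stood at 2142 to 2390 and 1921 to 2163 CPM. Calcium channels had a median of 0.01 over 10 of 11 members, with Cacna1a, the release channel of the PV terminal, at 1327 to 1417 CPM and Cacnb4 at 770 to 828 CPM. Cacna1g, a T-type channel, had 14, 11, 32 and 13 UMIs (log2 fold change 0.91, SE 0.40, adjusted p by edgeR = 0.929). Ion pumps had a median of 0.03 over 9 of 12 members. The calcium pump Atp2b2 stood at 501, 463, 453 and 442 CPM (log2 fold change -0.10, SE 0.11).

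Of 7 creatine genes 3 passed the filter and none of these passed the test. Gamt, which completes creatine synthesis, was listed at 0, and Ckm, the muscle kinase, had 0.69 CPM in 1 library. The brain creatine kinase Ckb stood at 39.3, 30.3, 34.3 and 26.6 CPM (log2 fold change -0.16, SE 0.24), the mitochondrial kinase Ckmt1 had 29, 28, 16 and 24 UMIs (-0.42, SE 0.34) and Gatm, the first enzyme of synthesis, stood at 7.59, 6.95, 8.73 and 3.12 CPM (-0.22, SE 0.51). Ckmt2 stood at 7.59, 4.42, 5.61 and 3.12 CPM and was not tested.

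Of the GABA synthesis and uptake list 5 genes outside the rule were tested, with a median of -0.04. Abat, which degrades GABA, stood at 197, 166, 177 and 173 CPM. Slc32a1, the vesicular GABA transporter, stood at 23.4, 29.1, 29.9 and 20.3 CPM.

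All 21 vesicle release genes were tested and their median was -0.00. Syt2 stood at 106, 119, 102 and 122 CPM (log2 fold change -0.00, SE 0.15), Syt1 at 3931 to 4313 CPM and Rims1 at 1432 to 1634 CPM. Unc13c, a priming factor, stood at 89.7, 62.6, 51.7 and 35.9 CPM, without overlap (log2 fold change -0.76, SE 0.20, adjusted p by edgeR = 0.257). It was at a mean of 517 CPM in Grin3a-rich nuclei. Of the calcium-binding list 4 genes were tested besides Pvalb, and Calm2, a calmodulin gene, stood at 81.4 to 99.1 CPM and Ncald at 459 to 569 CPM.

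No GABA-A receptor subunit passed the test. All 12 were tested, with a median of -0.04, and at an unadjusted p under 0.05 there were 2 with higher and 2 with lower values in CrT-KO. Gabra2 stood at 132, 163, 103 and 87.5 CPM (log2 fold change -0.61, SE 0.15, adjusted p by edgeR = 0.167), and Gabrd, the extrasynaptic delta subunit, at 64.1, 76.5, 50.5 and 55.5 CPM (-0.41, SE 0.18, adjusted p = 0.928). The groups did not overlap for either subunit. Gabrg3 stood at 3176 to 3291 CPM.

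Ionotropic glutamate receptor genes had a median of 0.04 over 14 of 15 members. Gria1 and Gria4 stood at 2309 to 2644 and 2412 to 2838 CPM, and the kainate receptor subunit Grik2 at 2203, 2088, 2622 and 2443 CPM (log2 fold change 0.25, SE 0.09, adjusted p by edgeR = 0.775). Synaptic adhesion genes had a median of 0.07 over 16 of 16. Cntnap2 and Nrxn3 stood at 10121 to 11780 and 9530 to 10382 CPM. Adam23, a partner of the secreted protein Lgi1, stood at 279, 289, 347 and 371 CPM (0.35, SE 0.11, adjusted p = 0.537), and Nlgn1, neuroligin 1, at 2600, 2744, 2271 and 2208 CPM (-0.24, SE 0.09, adjusted p = 0.796).

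Of the perineuronal net list, the matrix that surrounds PV cells, 7 of 10 genes were tested and the median was -0.12. Acan, its core proteoglycan, stood at 11.7, 24.7, 12.5 and 10.2 CPM with overlap, and Tnr at 928 to 1076 CPM. Ptprz1 stood at 106 to 170 CPM. Vcan stood at 3.45, 3.79, 12.5 and 12.5 CPM, without overlap (log2 fold change 1.77, SE 0.48, adjusted p by edgeR = 0.333). Vcan is also a marker of oligodendrocyte precursors, whose 5 markers summed to 243, 246, 277 and 229 CPM with overlap, none of them at 0. In the neuregulin list the ErbB ligand Nrg4 stood at 15.9, 13.3, 29.3 and 21.1 CPM (0.82, SE 0.30, adjusted p = 0.781), while Nrg3 and Nrg1 stood at 6976 to 7967 and 1214 to 1412 CPM, and the median over 6 tested genes was 0.19.

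No gene of the energy lists passed the test. The respiratory chain list had a median of 0.06 over 19 of 22 members, with Ndufs4 at 149, 133, 130 and 149 CPM and Ndufs1 at 94.5 to 109 CPM, and its log2 fold changes ran from -0.69 (Cyc1) to 0.43 (Ndufa4). Glycolysis and lactate genes had a median of -0.07 over 15 of 20, with Pfkp at 128 to 171 and Slc16a7 at 107 to 125 CPM. Mitochondrial regulators had a median of -0.08 over 8 of 9. Esrrg stood at 1142, 1055, 992 and 1041 CPM, and its coactivator Ppargc1a at 283, 259, 262 and 359 CPM (log2 fold change 0.20, SE 0.13, adjusted p by edgeR = 0.983). Cox4i1 was listed at 0 and Gapdh at 0 to 3.79 CPM, though every cell uses both. The cause of these low values was not tested, and reads of genes with near-identical copies were not examined. Syt2, Rarb, Kcnab2, Kcnh7, Nrg4, Ckmt1, Ncald, Ndufs1, Pfkp, Pdia3 and Cacna2d3 lie opposite another gene. Whether counting kept reads of the other strand apart is not given in the sources used here.

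Interneuron transcription factors had a median of 0.06 over 9 of 13. Sox6 stood at 1117, 1207, 1145 and 1097 CPM and Mef2c at 1020, 1092, 1030 and 1293 CPM. Endoplasmic reticulum chaperones had the lowest median of the lists with at least 5 tested members, at -0.23 over 10 of 18. Hsp90b1 stood at 40.7, 41.1, 22.4 and 32.0 CPM (log2 fold change -0.60, SE 0.24, adjusted p by edgeR = 0.827), Canx at 49.9 to 74.6 CPM and Pdia3 at 40.0 to 56.3 CPM. Only 1 of 14 immediate-early genes could be tested, Nr4a1, at 18.6, 17.1, 24.3 and 19.5 CPM, while Nr4a3 stood at 3.91 to 8.28 CPM.

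**Figure D5:**
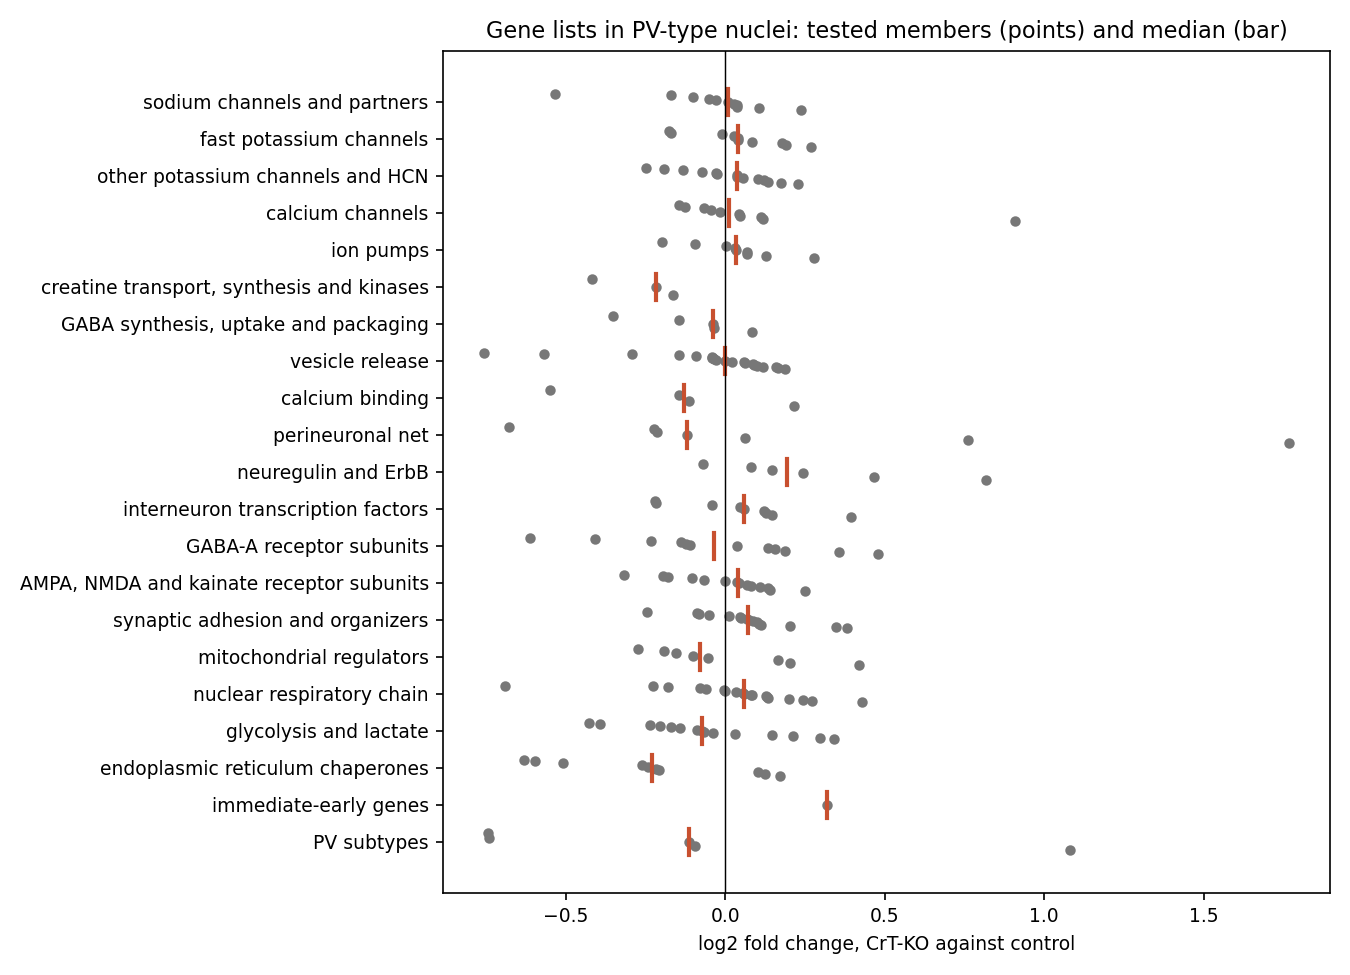
Log2 fold change of CrT-KO against control in PV-type nuclei for the tested members of 21 gene lists (points) and the median of each list (bars). The medians of the channel, pump, vesicle release and receptor lists lie between -0.04 and 0.04, Vcan lies at 1.77 and Unc13c at -0.76.

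Markers of other cell types were counted in PV-type nuclei as well. The 9 SST-type markers summed to 348 to 427 CPM with Sst at 0, and the 9 VIP-type markers to 1073 to 1493 CPM with Vip, Crh and Htr3a at 0 and Npas3 at 915 to 1190 CPM. The 9 LAMP5-type markers summed to 143 to 191 CPM, with Npy2r, Cplx3 and Lsp1 at 0. The 10 excitatory markers summed to 548 to 653 CPM with Slc17a7 at 0, and the 12 markers of striatal projection neurons to 1639 to 1949 CPM with Adora2a and Gpr6 at 0 and Pde10a at 1443 to 1746 CPM. The 7 microglia markers summed to 40.5 to 65.5 CPM and the 6 endothelial and pericyte markers to 3.45 to 13.3 CPM with Cldn5 at 0. Of these lists and those of glia above, the oligodendrocyte and SST-type sums were lower in both CrT-KO libraries than in both controls, the latter at 427, 392, 376 and 348 CPM. The part of these RNAs in the called genes was not tested beyond the selections above.

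A further comparison asked whether the genotype effect differed between PV-type nuclei and other populations, as the interaction of genotype and population with library as a block. Against excitatory nuclei 24 of 12052 genes were called (0.199%), 7 with a greater and 17 with a smaller log2 fold change in PV-type nuclei. They included 4 of the 7 genes called in PV-type nuclei. Rnf220 differed by -1.50 (SE 0.26, adjusted p by edgeR = 0.000407), Mbp by -0.93 (SE 0.19, 0.00774), March1 by 0.49 (SE 0.11, 0.0233) and Dock10 by -0.74 (SE 0.18, 0.0612). Rnf220 stood at 28.5, 25.6, 24.0 and 19.4 CPM in excitatory nuclei and March1 at 1066, 1082, 1194 and 1163 CPM. With doublets removed 6 genes were called.

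Against SST-type nuclei 13 of 7561 genes were called (0.172%), none of them among the 7 genes, on sums of 7 and 6 SST-type nuclei in CrT-KO. Against the 450 Grin3a-rich nuclei 5 of 8507 were called (0.0588%). There Rnf220 differed by -2.11 (SE 0.36, adjusted p by edgeR = 0.0170), with 29.2, 36.9, 31.6 and 56.2 CPM in Grin3a-rich nuclei, and March1 by 0.80 (SE 0.15, 0.0285), with 803, 907, 819 and 715 CPM. Against VIP-type nuclei 13 of 7629 were called (0.170%), again with none of the 7 genes, and without control replicate 2 the count was 0, with 358 at an unadjusted p under 0.05. March1 stood at 666, 748, 1197 and 1234 CPM in VIP-type nuclei. Its log2 fold change there was 0.75 (adjusted p by edgeR = 0.0766), so it was also called in VIP-type nuclei. The difference of March1 from PV-type nuclei was -0.08 (SE 0.20, adjusted p by the edgeR interaction test = 0.999). For Slc15a2 that difference was -0.10 (SE 0.98, adjusted p = 0.999 by the same test).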

How the data were processed

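The authors deposited raw UMI counts per gene and nucleus for 4 libraries, with no scaling and no annotation of cell types. Per the submitters' notes and the study's methods, nuclei were purified by flow cytometry, run on a 10x Genomics droplet device, and counted with Cell Ranger 3.1.0 on a custom pre-mRNA reference of GRCm38 (mm10), so intronic reads count. FastQC and Seurat 3.1.4 are named too. Whether counting used strand is not given in the sources used here.

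The rule was applied to the raw counts and UMIs were summed per library. The members and gene lists were chosen with earlier results of these data known. Sums were tested with edgeR 4.0.16 in R 4.3.3 (quasi-likelihood, TMM, filterByExpr with at least 10 counts and 15 in total, Benjamini-Hochberg, threshold 0.1, the study's level; the study itself compared single nuclei by a rank test). Interactions used 8 sums with library as a block. The procedure was tested on simulated data. Nuclei were thinned without replacement and doublets marked per library with Scrublet (scanpy 1.11.5); no doublets were removed from the main counts. A symbol given to several gene IDs stands for the ID with most UMIs. Alternatives were DESeq2 1.42.0, RLE or library-size factors, no filter, a replicate block, removal of doublets, stricter rules and leaving out each library. Coordinates are from GENCODE vM21, the same build, in which 99.5% of gene IDs were found.

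Named genes were the creatine genes, the 11 rule genes, all called genes without overlap, the 2 most abundant members of each list with any at an unadjusted p under 0.01, the 12 leading genes by level, and the called interaction genes. Other list members were named after their values were seen. Some members of the lists are not reported here. Counts limit precision as the standard errors show.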

Additional observations from a re-analysis of the deposited data

Results flagged for a closer look

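Among the called interactions, 12 are given here, namely those of genes also called in PV-type nuclei and otherwise the 3 genes with the smallest p in a comparison, each by the edgeR interaction test. These values are log2 fold change in PV-type nuclei minus that in the other nuclei. Against excitatory nuclei the differences were -1.50 for Rnf220, -0.93 for Mbp, -0.74 for Dock10 and 0.49 for March1. Against Grin3a-rich nuclei they were -2.11 for Rnf220 and 0.80 for March1. The sum of 7 oligodendrocyte markers includes Mbp. It was lower in both CrT-KO libraries in PV-type nuclei (166, 157, 76.1 and 81.2 CPM). In excitatory nuclei it overlapped between genotypes (167, 158, 161 and 119 CPM), as it did in VIP-type and Grin3a-rich nuclei. It was also lower in both CrT-KO libraries in SST-type nuclei (122, 108, 27.5 and 39.6 CPM).

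Against SST-type nuclei the 3 genes with the smallest p were Tmtc2 (3.62, edgeR adjusted p = 5.02e-06), Adarb2 (3.92, adjusted p = 5.74e-05) and Cdh12 (1.97, adjusted p = 7.27e-05). Tmtc2 stood at 136, 116, 162 and 123 CPM in PV-type nuclei, without passing the test there (log2 fold change 0.20, adjusted p = 0.983), and at 405, 394, 27.5 and 59.4 CPM in SST-type nuclei, on 40, 55, 2 and 3 UMIs. Adarb2 had 0, 60, 2 and 1 UMIs in SST-type nuclei, so 1 control library holds the difference. Without control replicate 2 the Adarb2 interaction, PV-type against SST-type, was -6.57 (SE 4.24), the opposite sign. Cdh12 stood at 1257, 1078, 1222 and 1165 CPM in PV-type nuclei and at 1591, 1441, 730 and 158 CPM in SST-type nuclei.

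Against VIP-type nuclei the 3 genes with the smallest p were Luzp2 (1.88), Thsd7a (1.30) and Hs3st4 (-2.22), each with an edgeR adjusted p of 0.000143. Luzp2 stood at 1283, 1295, 1148 and 1158 CPM in PV-type nuclei and at 402, 372, 83.8 and 112 CPM in VIP-type nuclei. Thsd7a stood at 784, 952, 839 and 1056 CPM in PV-type nuclei, where the groups overlap, and at 1332, 1552, 575 and 735 CPM in VIP-type nuclei. Hs3st4 stood at 140, 132, 63.0 and 117 CPM in PV-type nuclei (log2 fold change -0.61, adjusted p = 0.458) and at 163, 63.2, 339 and 335 CPM in VIP-type nuclei.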

How the results depend on the processing

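Leaving out 1 library leaves a genotype with 1 animal, which is then assumed to vary like the others. The selections by Grin3a and Adarb2 and by oligodendrocyte markers, and the Grin3a-rich comparison, were added after the data were seen. Counts of called genes moved with most choices. In PV-type nuclei 7 genes were called, and 7 with RLE factors (the same genes), 5 with library size only, 6 at a threshold of 0.05, 9 with doublets removed (4 shared), 10 with at least 4 Btbd11 and 10 Erbb4 UMIs and 9 with few Grin3a and Adarb2 UMIs (6 shared each). DESeq2 called 3 (March1, Rnf220 and Ptprt), the fit without a filter 34, members with at least 1 Pvalb UMI 14, and members with few oligodendrocyte marker UMIs 0. Leaving out 1 library gave 19 to 26 (24 without control 1, 19 without control 2, 26 without CrT-KO 1 and 22 without CrT-KO 2). No called gene changed sign in its alternatives, but none kept its call in all of them. Rnf220 was called in 13 of 14, March1 in 12 of 14, Slc15a2 in 11 of 13 (not tested in members with a Pvalb UMI), Prr5l in 11 of 12 (under the filter, so not tested, with doublets removed and with few oligodendrocyte marker UMIs), Ptprt in 9 of 14, Dock10 in 8 of 14 and Mbp in 7 of 14.

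The replicate block, with the replicate number of the labels, gave 62 genes (19 higher), and 6 list genes (among them Adam23, Gabra2, Unc13c and Vcan) against 0. Deviations of same-numbered libraries correlated at 0.079, and the labels tie the numbers to nothing, so they were not taken as pairs. Leaving out 1 library gave 0 to 2 list genes. The log2 ratio of Slc6a8 in PV-type nuclei ran from -2.29 to -0.81 when 1 library was left out.

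The share difference of -0.494 percentage points became 7.46 among PV-, SST- and VIP-type nuclei and ran from -1.25 to 0.265 when 1 library was left out (0.00673 without control replicate 1 and 0.265 without CrT-KO replicate 1). It kept its sign under the other alternatives, down to -0.657.

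Interaction calls against SST-type nuclei were 13, but 7 at a threshold of 0.05, 7 without a filter, 5 for Grin3a-rich nuclei, and 4 to 32 when 1 library was left out. Against VIP-type nuclei they were 13, but 8 at a threshold of 0.05, 20 with doublets removed and 0 to 44 when 1 library was left out. Against excitatory nuclei they were 24, but 14 at a threshold of 0.05, 14 with RLE factors, 6 with doublets removed and 13 to 23 when 1 library was left out. The Adarb2 interaction, PV-type against SST-type, ran from -6.57 (without control replicate 2, the opposite sign) to 5.17 when 1 library was left out. The cause of these changes was not tested.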
